A study of Mus musculus with 6 samples.

Results

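Complex I of the respiratory chain was examined through the probes whose gene name in the array report begins with NDUF, the root shared by most of its subunits and assembly factors. Of 45281 probes listed, 54 met this rule, under 37 gene names. The cells were C2C12, a line of mouse myoblasts that form contractile myotubes by fusion once they differentiate. Myoblasts received 60 nM of scramble siRNA or of an siRNA against *Dj1* (*Park7*), differentiation began 48 h later, and myotubes were collected after 4 days. Each group held 3 samples, with 1 array per sample (6 arrays in all), and a single siRNA was used against *Dj1*, so that its effects on other transcripts cannot be told apart from those of the knockdown. Nothing beyond the labels says that the samples of a group were separate cultures, so p-values measure the spread between these samples, which may be technical.

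Complex I takes electrons from NADH in the mitochondrial matrix, passes them to ubiquinone in the inner membrane and pumps protons across that membrane. Its matrix arm carries the flavin and the iron-sulphur clusters along which the electrons travel, and its membrane arm holds the proton pumps, whose core subunits are encoded by mitochondrial DNA. Around this core lie many accessory subunits encoded in the nucleus, and a set of assembly factors joins the parts without staying in the finished enzyme. Muscle is rich in complex I because contraction draws on oxidative ATP production.

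Signals were corrected for background, quantile normalized and placed on the log2 scale, and a probe was tested when its detection p-value, which compares it with the negative controls of the array, was under 0.05 on at least 3 of the 6 arrays. Of the 54 NDUF probes, 49 were tested, and they covered 36 of the 37 genes. The 5 others were 1 of the 2 probes each of *Ndufa6*, *Ndufb2*, *Ndufb4* and *Ndufb11*, and the single probe of the core subunit *Ndufs1*, which was not detected on any array, so that *Ndufs1* has no value here. Between 49 and 50 NDUF probes were detected on each array. The median standard error over beads of the tested NDUF probes was 234, 150 and 213 signal units with scramble siRNA and 152, 136 and 128 with DJ-1 siRNA.

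The targeted gene was read first. *Park7* (ILMN_2728754) had a normalized log2 signal of 13.59, 13.37 and 13.63 with scramble siRNA and of 12.48, 12.49 and 12.15 with DJ-1 siRNA. No knockdown array reached a scramble array, and 44.7% of the scramble signal was left (adjusted p = 0.0034 from limma, Benjamini-Hochberg over all tested probes).

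After *Dj1* knockdown, 6 of the 49 tested NDUF probes were lower and 0 were higher at an adjusted p under 0.05 from limma's moderated test. These were probes of *Ndufs3*, *Ndufa11*, *Ndufb10*, *Ndufb8*, *Ndufab1* and *Ndufa4*. The share of NDUF probes called lower was 12.2%, beside 13.6% of all 17890 tested probes, and none was called higher, beside 16.5%. In either direction 30.1% of all tested probes were called. At an unadjusted p under 0.05, 12 NDUF probes were lower and 1 was higher (24.5% and 2.04%, beside 19.2% and 23.6% of all tested probes). With a trend of the prior variance on the mean signal, limma called 20 lower and 2 higher (40.8% and 4.08%, beside 16.9% and 19.3% of all tested probes), and without background correction it called 13 lower and 1 higher (26.5% and 2.04%, beside 16.4% and 18.8%). The NDUF share called in either direction was 12.2% beside 30.1% here. It lay above that of the array with the variance trend (44.9% beside 36.2%) and without the filter (9.26% beside 7.77%). In all other alternatives that read single probes it lay below. The filter had left out 27391 probes of the array and 5 NDUF probes. The difference between these shares was not tested. An unmoderated test, which takes each probe's own variance, called 5 lower and 2 higher (10.2% and 4.08%, beside 9.39% and 11.1%). The limma count fell to 3 lower (6.12%) when DJ-1 siRNA replicate 1 was left out, beside 6.55% of all tested probes. It was again 3 (6.12%) when DJ-1 siRNA replicate 3 was left out, beside 7.05%.

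Most NDUF estimates were below 0. The log2 fold change was negative for 39 of the 49 probes, with a median of -0.16, beside a median of 0.05 over all tested probes. All DJ-1 siRNA arrays lay below all scramble arrays for 25 NDUF probes (51.0%, beside 22% of all tested probes) and above them for 2 (4.08%, beside 26.5%). Measured from each probe's scramble mean, the median NDUF probe lay at 0.02, -0.04 and 0.01 with scramble siRNA and at -0.14, -0.08 and -0.21 with DJ-1 siRNA. The median over all tested probes, measured in the same way, lay at -0.011, 0.003 and 0.006 against 0.040, 0.047 and 0.044, so the groups separated downwards in the first median and upwards in the second. Its size depends on the scaling, since aligning the 75th percentiles of the arrays, without quantile normalization, gave a median of -0.03 with 28 negative probes, beside a median of 0.07 over all tested probes. In bulk RNA, fewer cells that express a gene and less RNA per cell cannot be told apart.

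**Figure D1:**
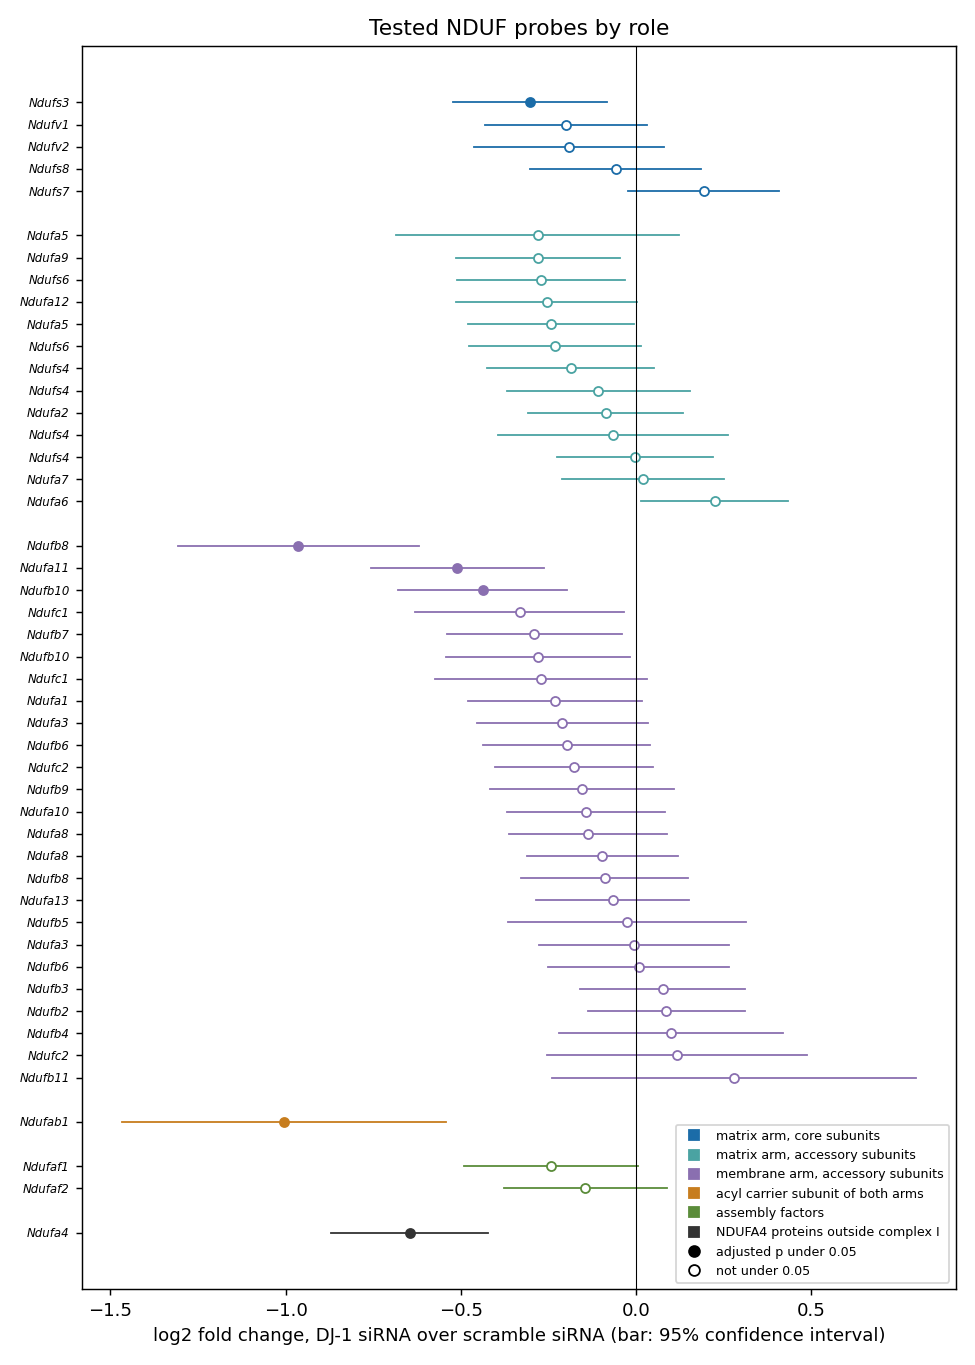
Log2 fold change of 47 of the 49 tested NDUF probes, DJ-1 siRNA over scramble siRNA (x axis), with its 95% confidence interval from limma, grouped by the role of the gene. Filled points have an adjusted p under 0.05. The 6 filled points lie left of 0, and 38 of the 47 points are negative.

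The core subunits of the matrix arm hold or surround the redox centres. *Ndufs3*, one of the core subunits beside the iron-sulphur chain, had a normalized log2 signal of 12.53, 12.52 and 12.63 with scramble siRNA and of 12.27, 12.29 and 12.21 with DJ-1 siRNA. The groups did not overlap. Its log2 fold change was -0.30 (standard error 0.09), or 81.0% of the scramble signal, with an adjusted p = 0.047 from limma. This call was lost in 10 of 15 alternatives, among them the removal of any of the 6 arrays, where the adjusted p lay between 0.068 and 0.133, while the fold change stayed negative in all 15.

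None of the other core subunits described here passed the test. *Ndufv1*, which binds NADH and the flavin, read 13.22, 13.27 and 13.27 with scramble siRNA and 13.11, 13.10 and 12.94 after knockdown in log2 signal, without overlap (log2 fold change -0.20, adjusted p = 0.163 from limma). *Ndufv2*, its partner with an iron-sulphur cluster, read 13.32, 13.07 and 13.14 against 12.98, 13.09 and 12.88. For *Ndufv2* the groups overlapped, as DJ-1 siRNA replicate 2 lay above scramble replicate 2 (log2 fold change -0.19, adjusted p = 0.246 from limma).

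*Ndufs7*, which holds the last cluster before ubiquinone, read 12.85, 12.73 and 12.78 with scramble siRNA and 12.97, 13.004 and 12.97 with DJ-1 siRNA in log2 signal. Its knockdown arrays all lay above the scramble arrays (log2 fold change 0.19, adjusted p = 0.151 from limma). *Ndufs8*, which carries a pair of clusters, read 12.41, 12.19 and 12.21 against 12.19, 12.25 and 12.19, with overlap (log2 fold change -0.06). The sign of *Ndufs8* turned with the scaling to a common 75th percentile (0.07).

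The accessory subunits of the matrix arm gave 13 tested probes from 8 genes, and none passed the test in limma (at an unadjusted p under 0.05, 3 were lower and 1 was higher, or 23.1% and 7.69% beside 19.2% and 23.6% of all tested probes). With the variance trend 6 of the 13 were lower and 1 higher (beside 16.9% and 19.3%). Without background correction the counts were 4 and 1 (beside 16.4% and 18.8%). The log2 fold changes of these probes ran from -0.28 to 0.22, 11 of 13 were negative and the median was -0.19, against 7 of 13 and -0.03 with the alignment of 75th percentiles. Nearest to the threshold among all NDUF probes that were not called was *Ndufa9*, a subunit at the junction of the arms. In log2 signal it read 12.56, 12.42 and 12.48 with scramble siRNA and 12.19, 12.29 and 12.13 with DJ-1 siRNA, with no overlap (log2 fold change -0.28, adjusted p = 0.072 from limma). The 4 probes of *Ndufs4*, a subunit needed for a stable matrix arm, gave log2 fold changes of -0.19, -0.11, -0.07 and -0.002. *Ndufa6* was the highest of these probes at 0.22 (adjusted p = 0.101 from limma) and, with *Ndufs7*, made up the 2 probes whose groups separated upwards. Both were called higher with the variance trend and with either shift to a common 75th percentile.

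The membrane arm gave 25 tested probes from 18 nuclear genes for accessory subunits, of which 3 were lower and 0 higher by limma (12%, near the 13.6% of all tested probes, and 6 and 0 at an unadjusted p under 0.05, or 24% beside 19.2%). The lower count was 9 with the variance trend (beside 16.9% of all tested probes). It was 1 without DJ-1 siRNA replicate 1 or replicate 3 (beside 6.55% and 7.05%). *Ndufa11*, a membrane subunit that helps to hold the membrane arm together, had a normalized log2 signal of 11.71, 11.78 and 11.57 with scramble siRNA and of 11.19, 11.25 and 11.09 after knockdown. Every knockdown array lay below every scramble array. Its log2 fold change of -0.51 had a standard error of 0.10 (adjusted p = 0.014 from limma), and the adjusted p was 0.054 with DJ-1 siRNA replicate 1 left out and 0.053 with DJ-1 siRNA replicate 3 left out.

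*Ndufb10*, an accessory subunit of the distal membrane arm, has 2 probes. The first (ILMN_2691261), which is named in the file only and did not match the RefSeq table, read 8.84, 8.86 and 8.65 with scramble siRNA and 8.33, 8.38 and 8.34 with DJ-1 siRNA in log2 signal. The second (ILMN_2900216) read 11.29, 11.41 and 11.40 against 10.93, 11.20 and 11.12. Neither probe's groups overlapped. The first was lower by the test (log2 fold change -0.44, adjusted p = 0.021 from limma) and the second did not pass (-0.28, adjusted p = 0.098 from limma). The first call was lost when scramble replicate 2 was left out (adjusted p = 0.060 from limma), and likewise for each DJ-1 siRNA array (0.079, 0.051 and 0.066 for replicates 1, 2 and 3).

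The probes of *Ndufb8*, another subunit of the distal membrane arm, did not move alike. ILMN_2501071 gave a deposited signal of 330, 336 and 331 with scramble siRNA and of 220, 267 and 206 with DJ-1 siRNA, where the median of all probes was between 152 and 167. After normalization its log2 signal was 7.53, 7.55 and 7.69 against 6.44, 6.91 and 6.53. All knockdown arrays were lower (log2 fold change -0.96, standard error 0.14, adjusted p = 0.0058 from limma). It was called in all 14 alternatives that read this probe alone, where the log2 fold change lay between -1.10 and -0.48, the latter without background correction and with the alignment of 75th percentiles (-0.49 without background correction alone).

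ILMN_2621966, the other *Ndufb8* probe, read 13.74, 13.68 and 13.59 with scramble siRNA and 13.52, 13.68 and 13.54 after knockdown in log2 signal. Its groups overlapped (log2 fold change -0.09, adjusted p = 0.534 from limma), and its sign turned with the shift to a common 75th percentile (0.08). The difference between the probes, the first minus the second on each array, was -6.21, -6.13 and -5.90 with scramble siRNA and -7.08, -6.78 and -7.01 with DJ-1 siRNA. It moved by -0.87 without overlap (p = 0.1 by a two-sided exact permutation test, which cannot go lower with 3 arrays a group). Which transcripts each probe reads was not tested, as probe sequences were not used here, and neither was the reading of near-identical copies of any NDUF gene, such as pseudogenes.

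The 22 membrane arm probes that were not called ran from -0.33 (*Ndufc1*) to 0.28 (*Ndufb11*) in log2 fold change. Over 11 genes with more than 1 tested NDUF probe, the difference within a pair separated the groups for 2 of 16 pairs compared, 1 of *Ndufb8* and 1 of *Ndufs4* (12.5%, beside 23.7% of the 7316 such pairs on the array).

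**Figure D2:**
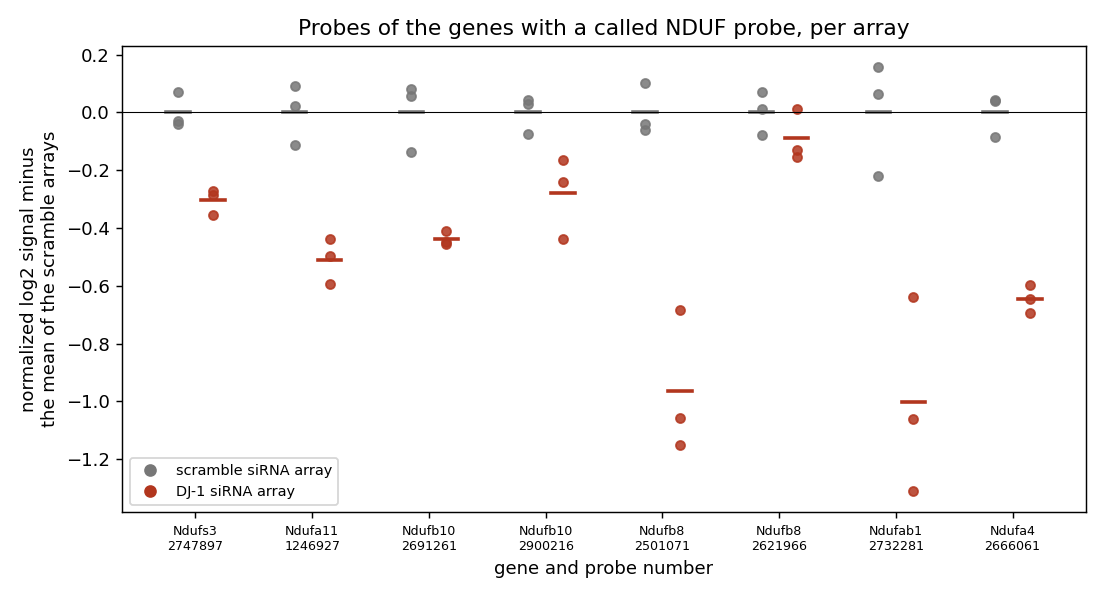
Normalized log2 signal on each array minus the mean of the 3 scramble arrays (y axis) for the 8 tested probes of the 6 genes with a called NDUF probe (x axis, gene and probe number). Bars are group means. The groups overlap only for *Ndufb8* probe ILMN_2621966.

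*Ndufab1* encodes the mitochondrial acyl carrier protein, which sits in both arms of complex I and also serves fatty acid and lipoic acid synthesis in the matrix. Its deposited signal was 299, 275 and 289 with scramble siRNA and 203, 200 and 208 with DJ-1 siRNA. In normalized log2 signal this was 7.28, 7.001 and 7.38 against 6.16, 5.91 and 6.58. No knockdown array reached the scramble arrays, and the fall came to -1.004 in log2 units, with a standard error of 0.19 (adjusted p = 0.012 from limma). The estimate rests on a signal near background, and it was -0.44 at its smallest over the 15 alternatives. It was called in 14 of them, and the unmoderated test gave an adjusted p of 0.053.

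*Ndufa4* was first purified with complex I and is now placed in complex IV, cytochrome c oxidase. It read 13.67, 13.54 and 13.67 with scramble siRNA and 12.93, 13.03 and 12.98 with DJ-1 siRNA in log2 signal. The groups lay far apart compared with the spread within each, and 63.9% of the scramble signal was left (log2 fold change -0.65, standard error 0.09, adjusted p = 0.0053 from limma). This probe was called in all 15 alternatives, with log2 fold changes between -0.69 and -0.50. No probe was listed for its paralogue *Ndufa4l2*.

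Assembly factors named under the rule were *Ndufaf1*, which acts on the membrane arm, and *Ndufaf2*, which the file lists as NDUFA12L and which acts late in assembly. *Ndufaf1* read 10.96, 11.16 and 11.02 with scramble siRNA and 10.71, 10.89 and 10.81 after knockdown in log2 signal (log2 fold change -0.24, adjusted p = 0.123 from limma). *Ndufaf2* read 10.43, 10.52 and 10.48 against 10.37, 10.41 and 10.22 (log2 fold change -0.14, adjusted p = 0.303 from limma). For both, all knockdown arrays lay below the scramble arrays, but neither passed the test.

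Summarised per gene, as the mean of its tested probes, 6 of 36 NDUF genes were lower (16.7%, beside 14.5% of all 12623 gene means) and 0 were higher (beside 18.5%) at an adjusted p under 0.05 from limma. They were *Ndufs3*, *Ndufa11*, *Ndufb10*, *Ndufb8*, *Ndufab1* and *Ndufa4*. The median gene lay at -0.14, beside 0.05 over all gene means. *Ndufb8* as a mean of its probes was -0.53, a value that neither probe shows.

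The promoters of the NDUF genes, the 6 with a probe called lower among them, were read for the letters bound by factors known to act on respiratory genes, nuclear respiratory factor 1 and the ETS family. RefSeq sequences (GRCm38.p6) of 300 bases, 250 before the start to 50 after it, were found for 33 of the 37 genes, and 2 of these genes had 2 promoters. The letters GCGCATG, one side of the palindrome that nuclear respiratory factor 1 binds, or their reverse complement CATGCGC were in 5 of 35 NDUF promoters (14.3%) and in 3.91% of all 32851 promoters. The ETS core CCGGAAG, on either strand, was in 5 of 35 (14.3%) and in 8.86% of all. Of the 29 promoters of NDUF genes with no called probe, 3 held the first letters (10.3%, *Ndufa6*, *Ndufa8* and *Ndufb6*). The ETS core was in 4 of the 29 (13.8%, *Ndufaf1*, *Ndufb6*, *Ndufb7* and *Ndufs8*). Among the 6 genes, *Ndufa11* holds GCGCATG and CATGCGC overlapping, which 1% of all promoters do, *Ndufb8* holds GCGCATG from 7 bases after its start, and *Ndufs3* holds the ETS core on both sides of its start. *Ndufa4*, *Ndufab1* and *Ndufb10* hold none of these letters in the window. The 150 bases before the start are shown for the 2 of these 6 genes with a match there, on chr17:56717612-56717761, plus strand, for *Ndufa11* and chr2:90904722-90904871, minus strand, for *Ndufs3*, with the matched letters in capitals. This stretch and these genes were chosen after the matches were seen, and a match is no evidence of binding.
Ndufa11: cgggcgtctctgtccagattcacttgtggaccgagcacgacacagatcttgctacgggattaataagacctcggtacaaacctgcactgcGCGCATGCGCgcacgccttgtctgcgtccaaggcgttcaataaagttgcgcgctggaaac
Ndufs3: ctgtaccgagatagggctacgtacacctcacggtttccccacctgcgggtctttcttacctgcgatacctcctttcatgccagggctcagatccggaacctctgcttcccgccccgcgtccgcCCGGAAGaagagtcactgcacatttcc

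Complex I genes that the file lists under other names gave 11 further tested probes, of which 3 were lower (27.3%, beside 13.6% of all tested probes) and 2 higher. As 1 of the higher ones passed the filter through the DJ-1 siRNA arrays, their share is not read. The 3 lower ones were assembly factors. *Ndufaf4* read 10.15, 10.35 and 10.45 with scramble siRNA and 9.61, 9.75 and 9.42 after knockdown in log2 signal (log2 fold change -0.72, adjusted p = 0.0098 from limma). *Ndufaf3*, which works with *Ndufaf4* early in assembly, read 7.71, 7.53 and 7.15 against 6.83, 6.84 and 6.53 (-0.73, adjusted p = 0.022 from limma, and -0.37 without background correction). *Ndufaf5*, a matrix enzyme that modifies a core subunit, read 9.18, 8.96 and 8.99 against 8.68, 8.63 and 8.72 on its called probe (-0.36, adjusted p = 0.038 from limma). Its other probe read 9.24, 9.11 and 9.17 against 8.94, 8.94 and 8.76 (-0.29, adjusted p = 0.069 from limma). The groups overlapped on none of these 4 probes. *Ndufaf7* read 8.53, 8.56 and 8.22 against 8.61, 8.62 and 8.31 (0.08), and *Ndufaf8* read 8.51, 8.48 and 8.62 against 8.41, 8.46 and 8.72 (-0.01), both with overlap. No probe of *Ndufaf6* was tested, and a clone listed as a synonym of *Ndufaf4* gave -0.11. The *Ndufaf4* call was kept in all 15 alternatives, those of *Ndufaf3* and *Ndufaf5* in 11 and 7. Both were lost without scramble replicate 2, DJ-1 siRNA replicate 1 or DJ-1 siRNA replicate 3, and *Ndufaf5* also without scramble replicate 1, scramble replicate 3 or DJ-1 siRNA replicate 2, with adjusted p between 0.058 and 0.115 over these.

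The higher ones were *Ndufv3*, an accessory subunit beside the NADH site, and a clone. *Ndufv3* read 12.88, 12.88 and 12.89 with scramble siRNA and 13.38, 13.30 and 13.29 with DJ-1 siRNA in log2 signal on its called probe (log2 fold change 0.44, adjusted p = 0.013 from limma, and 0.061 without DJ-1 siRNA replicate 1). Its other 2 probes gave 0.30 and 0.45 and did not pass. The clone, 1700022J01RIK, is a RefSeq synonym of *Ndufa3* and was detected on 1 of 3 scramble arrays, so that the size of its log2 fold change of 1.38 is uncertain (0.48 without background correction). The NDUF probes of *Ndufa3* itself gave -0.21 and -0.01.

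Of the core subunits encoded by mitochondrial DNA, 5 were tested, 3 were lower and 0 higher in limma (the unmoderated test gave 3 and 0 as well, as did an unadjusted p under 0.05), or 60% beside 13.6% of all tested probes. Their probes carry no accession and are named by the array report only. The proton pump subunit mt-Nd4 read 15.26, 15.29 and 15.37 with scramble siRNA and 14.81, 14.84 and 14.76 after knockdown in log2 signal (log2 fold change -0.51, adjusted p = 0.0095 from limma). The neighbouring mt-Nd4l read 9.53, 9.85 and 9.84 against 8.41, 8.68 and 8.23 (-1.30, adjusted p = 0.0035 from limma). The quinone-site subunit mt-Nd1 read 15.04, 14.93 and 14.91 against 14.66, 14.69 and 14.59 (-0.31, adjusted p = 0.048 from limma), a call lost in 10 of 15 alternatives, among them the removal of any 1 array (adjusted p between 0.078 and 0.136) and the alignment of 75th percentiles (-0.02). That alignment also ended the mt-Nd4 call (-0.23, adjusted p = 0.156 from limma), and mt-Nd4l was called in all 15 alternatives. The groups were separate for all 3. For mt-Nd5 and mt-Nd6 the log2 fold changes were 0.09 and -0.02. Among 16 tested probes of assembly factors without an NDUF name, 1 was lower (6.25%, beside 13.6% of all tested probes) and 2 were higher (12.5%, beside 16.5%). The higher ones were for *Dmac2* (0.92) and for *Tmem186*, which had 1 probe in each direction (-0.91 and 0.54, or -0.54 and 0.17 without background correction). The higher *Tmem186* probe, detected on 1 of 3 scramble arrays, passed the filter through the DJ-1 siRNA arrays and lost its call without any 1 array but scramble replicate 3 (adjusted p between 0.083 and 0.123 from limma).

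Of the other respiratory complexes, II and III were read from lists of subunits and assembly factors, and IV and V from lists of subunits. The lists are thus unlike in make-up. Their shares stand beside 13.6% lower and 16.5% higher among all tested probes. Complex II had 3 higher (27.3%) and 0 lower of 11 tested probes in limma, for the assembly factors *Sdhaf1* (0.52) and *Sdhaf3* (0.97 and 0.59). The unmoderated test gave 1 and 1 there (beside 11.1% and 9.39% of all tested probes). An unadjusted p under 0.05 gave 3 and 1 (beside 23.6% and 19.2%). Complex III had 1 lower of 16 (6.25%), *Ttc19* (-0.37), and complex V 1 lower of 25 (4%), *Atp5j* (-0.70), with 0 higher in both. These counts depend on the fit, as 4 probes of complex III and 5 of complex V were lower at an unadjusted p under 0.05 (25% and 20%, beside 19.2%). With the variance trend 4 and 8 were lower, beside 16.9% of all tested probes. Complex III had 0 without any 1 of the DJ-1 siRNA arrays or scramble replicate 3, where 6.55% to 10.7% of all tested probes were lower. Complex IV, where the *Ndufa4* protein is placed, had 4 lower (25%) and 1 higher (6.25%) of 16. Its lower probes were those of *Cox5b* (-0.49 and -0.39), *Cox7a1* (-0.66) and *Cox7b* (-0.43), and the higher one was for *Cox7a2l* (0.39), a supercomplex factor. At an unadjusted p under 0.05 complex IV had 5 and 1 (beside 19.2% and 23.6% of all tested probes). Its lower count in limma was 0 without DJ-1 siRNA replicate 1 (beside 6.55%). The list medians were 0.05 for complex II, -0.10 for complex III, -0.09 for complex IV and 0.002 for complex V, beside -0.16 for the NDUF probes. The sign turned for complexes II, IV and V, as complex IV gave 0.06 with the alignment of 75th percentiles, complex II -0.09 without scramble replicate 3, and complex V -0.04 with a stricter filter and -0.02 without scramble replicate 2. As a mean of the gene's probes, *Ttc19* was -0.18, and the second *Cox5b* probe was -0.23 with that alignment. With 1 array left out, *Atp5j* and the first *Sdhaf3* probe stayed called, and the first *Cox5b* probe did but for DJ-1 siRNA replicate 1 (adjusted p = 0.052 from limma). The second *Sdhaf3* probe, *Sdhaf1*, *Ttc19*, the second *Cox5b* probe, *Cox7a1*, *Cox7b* and *Cox7a2l* each lost the call when DJ-1 siRNA replicate 1 was dropped (adjusted p between 0.078 and 0.128) and when replicate 3 was (between 0.073 and 0.147), and each also without 1 or more of the other arrays. Whether the lists differ from one another was not tested.

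**Figure D3:**
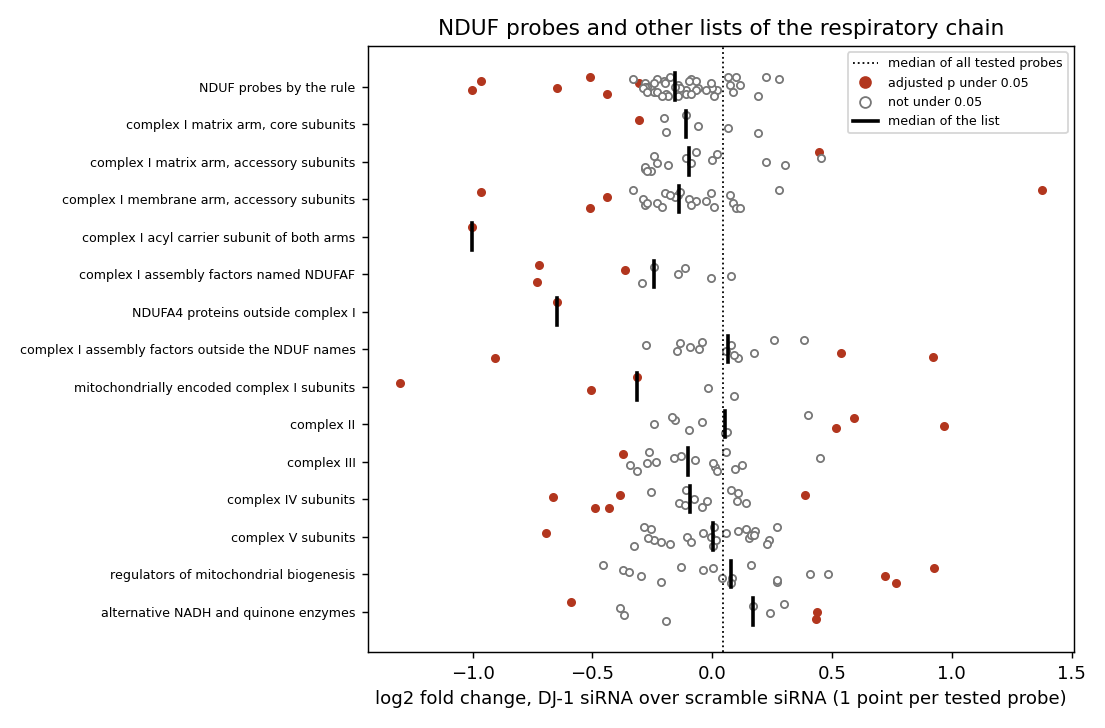
Log2 fold change of each tested probe (x axis) for the NDUF probes and for each list of respiratory genes (y axis). Filled points have an adjusted p under 0.05 from limma, black bars are list medians and the dotted line is the median of all tested probes, 0.05.

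Markers of the differentiated state moved as well. Of 20 tested probes of 14 myotube genes, 12 were lower and 0 higher in limma (60% and 0%, beside 13.6% and 16.5% of all tested probes), with a median of -0.54. The lower count was 7 without DJ-1 siRNA replicate 1 (beside 6.55% of all tested probes). At an unadjusted p under 0.05 the counts were also 12 and 0 (60% and 0%, beside 19.2% and 23.6%). The *Myh2* probe and that of *Myh4* passed the filter through the scramble arrays, since 0 and 1 of the 3 knockdown arrays detected them. With the stricter filter, a detection p under 0.01 on every array, which leaves them out, 10 of 18 were lower, beside 20.4% of all tested probes, and the median was -0.47. The summed normalized signal of the myotube list was 260772, 254978 and 254669 with scramble siRNA and 206685, 217767 and 190195 with DJ-1 siRNA, and the brightest probe, that of *Acta1*, had a log2 fold change of -0.01. Of the 10 tested probes of cycling myoblasts, 3 were lower and 0 higher in limma (30% and 0%, beside 13.6% and 16.5% of all tested probes). The lower count was 1 without DJ-1 siRNA replicate 1 or replicate 3 (beside 6.55% and 7.05% of all tested probes). At an unadjusted p under 0.05, 3 were lower and 3 higher (30% each, beside 19.2% and 23.6%). All 10 were detected on every DJ-1 siRNA array but 8 on every scramble array, so the rest passed the filter through the DJ-1 siRNA arrays. Of the 10, 6 were positive and the median was 0.16. The stricter filter left 8, of which 4 were negative, 3 lower and 2 higher (beside 20.4% lower and 20.5% higher of all), and the median was -0.06. The list summed to 5417, 5944 and 5417 against 4959, 5594 and 5120, with overlap. No probe of the adipocyte list was detected on any array, and 0 of 7 endothelial and 1 of 9 macrophage probes were tested. The part of the myotube markers in the NDUF values was not tested.

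**Figure D4:**
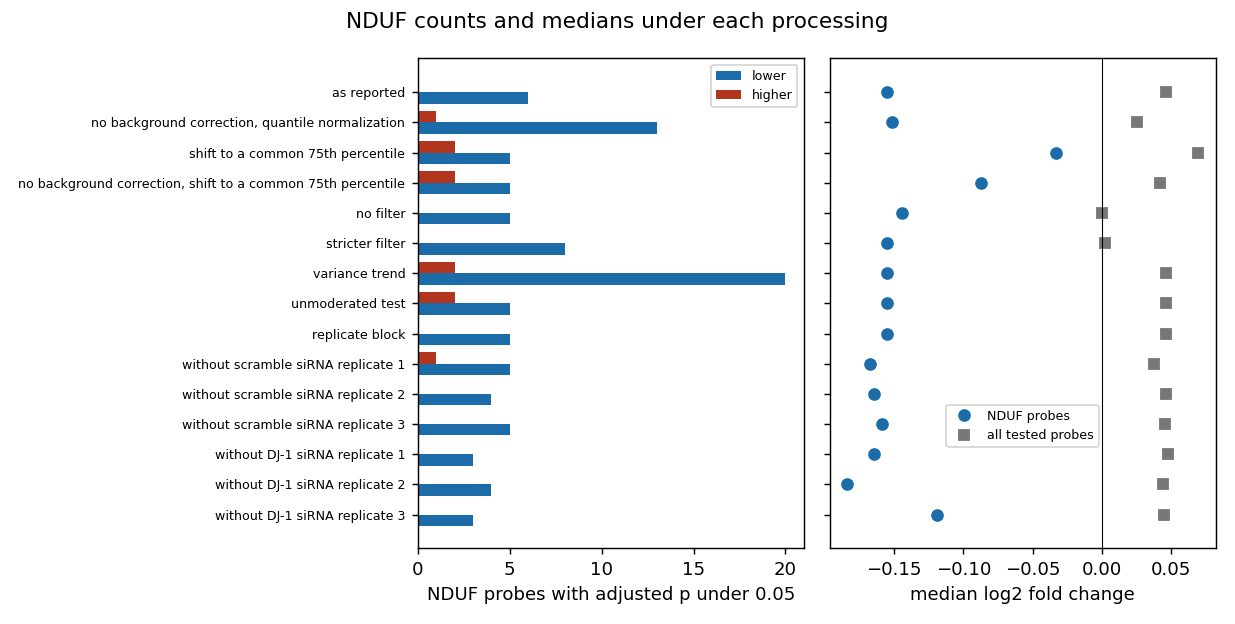
Number of NDUF probes with an adjusted p under 0.05 (left, x axis) and median log2 fold change of the NDUF probes and of all tested probes (right, x axis) for each way of processing the arrays (y axis). The NDUF median stays below 0 in each, from -0.18 to -0.03.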

How the data were processed

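The authors quantified the arrays in GenomeStudio and deposited, per probe and array, the mean signal intensity without normalization or background subtraction. They also deposited the standard error over beads (in signal intensity units), the bead count and the detection p-value of each probe. All 6 arrays lay on 1 BeadChip. In R 4.3.3 with limma 3.58.1, neqc corrected the background (normexp, offset 16, its level derived from detection p-values) and quantile normalized. Probes detected at p under 0.05 on 3 or more of the 6 arrays, 17890 in number, were fitted with lmFit and eBayes, 3 arrays against 3, with Benjamini-Hochberg adjustment over all of them. Intervals are 95% confidence intervals, and the number of arrays limits the precision.

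Gene names came from the RefSeq table of GRCm38.p6 through Entrez number or accession for 32345 probes, 51 of the 54 NDUF probes among them, and otherwise from the file. Lists were also matched through RefSeq synonyms. Values on each array were to be given for called NDUF probes, other probes of those genes, the core subunits of the matrix arm, *Ndufa4*, the NDUFAF genes and the uncalled probe nearest to the threshold, other members by range and count, and of the other lists each gene with a called probe. *Ndufs4*, *Ndufs7* with *Ndufa6*, the array values of *Ndufv3* and the mitochondrial subunits, and the members at the ends of a range were added after their values were seen. Some values under this rule are not reported here. The members and lists were chosen with earlier results of these data known. The steps were tested on simulated data, where unchanged probes made up more of limma's calls than the nominal share. Few probes were changed there, all by the same size, so that share may not carry over to these data. An adjusted p just under 0.05 may still be weaker than it reads. Alternatives covered the background correction, the scaling, the filter, the variance trend, a test without moderation, the replicate block, each array left out in turn and gene means. No paired design is stated.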

Additional observations from a re-analysis of the deposited data

How the results depend on the processing

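The *Park7* fall was called in all 15 alternatives (log2 fold change -1.24 to -1.003, and -1.24 to -1.05 with 1 array left out). Of the 6 called NDUF probes, *Ndufa4* and *Ndufb8* stayed called in all 15, of which 1 is the mean of the gene's probes (-0.53 for *Ndufb8*). Without background correction, 13 NDUF probes were lower and 1 higher (14 in all, 26.5% and 2.04%, beside 16.4% and 18.8% of all tested probes). With the variance trend 20 were lower and 2 higher (22 in all, 40.8% and 4.08%, beside 16.9% and 19.3%). Either shift to a common 75th percentile gave 5 and 2 (10.2% and 4.08%). All tested probes then gave 11.9% and 18.3% with background correction and 14.9% and 20.3% without it. The unmoderated test also gave 5 and 2 (10.2% and 4.08%, beside 9.39% and 11.1%). That test called 3674 probes after Benjamini-Hochberg adjustment and 7026 at an unadjusted p under 0.05. The NDUF median was -0.155 as reported, -0.033 with the 75th percentile shift and -0.087 with that shift and no background correction. Without the filter, 3519 probes of the whole array were called (1908 higher, 1611 lower). With 1 array left out, NDUF calls numbered 3 to 5 lower, 0 to 1 higher and 3 to 6 in all, the NDUF median lay between -0.18 and -0.12, and the whole array gave 2559 to 5271 calls (1387 to 2859 higher, 1172 to 2412 lower). The share called lower was then 6.12% to 10.2% of NDUF probes, beside 6.55% to 13.5% of all tested probes. The cause of these changes was not tested.

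Among the probes followed singly over the alternatives, signs turned for *Ndufs8*, *Ndufb8* ILMN_2621966 and *Tmem186* ILMN_2515217, of which only the last was called. *Ndufs8* gave 0.074 and 0.018 with the 2 shifts, 0.013 without scramble replicate 1, and down to -0.097 with another array left out. *Ndufb8* ILMN_2621966 gave 0.079 and 0.023 with the 2 shifts, and the *Tmem186* probe went from 0.54 to -0.185 as a mean of the gene's probes. Signs of further NDUF probes turned with the shifts. Of all 49, 39 were negative as reported, 28 with the 75th percentile shift and 31 with that shift and no background correction. With the replicate block, 5 NDUF probes were lower and 0 higher (10.2% and 0%, beside 11.1% and 13.2% of all tested probes). It called 4350 of all probes, and *Ndufs3* was not among them (adjusted p = 0.103 from limma). Deviations of same-numbered arrays correlated at 0.05, 0.05 and 0.02 after quantile normalization. That step removes shifts shared by a whole array, so these values cannot show whether the numbers pair the samples. By replicate number, the median deposited signal was 162.2, 167.4 and 153.5 with scramble siRNA and 161, 166.9 and 152.3 with DJ-1 siRNA. Whether this reflects pairing was not tested. Signal near background limits the size of the *Ndufb8*, *Ndufab1* and *Ndufaf3* changes, and background correction also set the size of those of *Gabpa*, *Gabpb1* and *Tmem186*.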

Other observations

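Genes that regulate mitochondrial biogenesis gave 3 higher and 0 lower of 19 tested probes in limma, and 15.8% higher is near the 16.5% of all tested probes (the unmoderated test gave 2 and 0, for other probes, and an unadjusted p under 0.05 gave 4 and 2). The higher ones encode the ETS-family factor GABP, with *Gabpb1* at log2 fold changes of 0.93 and 0.72 and *Gabpa* at 0.77 on one probe (adjusted p = 0.045, 0.025 and 0.047 from limma), which were 0.54, 0.36 and 0.37 without background correction, while the other tested *Gabpa* probe gave -0.37 (adjusted p = 0.115 from limma) and the gene mean was 0.20 (adjusted p = 0.422 from limma). Among enzymes that feed electrons to quinone without complex I, both probes of the glycerol phosphate dehydrogenase *Gpd2* were higher (0.43 and 0.44, adjusted p = 0.028 and 0.019 from limma, the first 0.27 without background correction). The list of *Gpd2* also held cytochrome c, *Cycs*, and *Nnt*, which are not such enzymes. Of its 9 tested probes 22.2% were higher and 11.1% lower (beside 16.5% and 13.6% of all). The lower one was 1 probe of *Cycs* (-0.59, adjusted p = 0.014 from limma). The unmoderated test did not call the *Gabpb1* probes (adjusted p = 0.132 and 0.078 from that test) or the *Gabpa* probe (0.130). Of the limma calls in these 2 lists, none held with each array left out in turn. The adjusted p from limma without DJ-1 siRNA replicate 3 was 0.138 for *Gabpa*, 0.079 and 0.085 for *Gabpb1*, 0.090 and 0.060 for *Gpd2* and 0.052 for *Cycs*.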
